A study of Mus musculus with 8 samples.

Results

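The miR-17 to miR-92a cluster, also called miR-17-92, is a run of miRNA hairpins cut from one primary transcript. Its members were taken by name from the array's annotation: mmu-miR-17-5p, mmu-miR-17-3p, mmu-miR-18a-5p, mmu-miR-19a-3p, mmu-miR-20a-5p, mmu-miR-19b-3p and mmu-miR-92a-3p, written below without the species prefix, with every probe of each. These are 7 of the 1023 mouse miRNA names on the array. The kidneys came from CD-1 mice, an outbred stock, after 28 days of tacrolimus, 1 mg per kg daily (4 arrays), or after physiological serum as control (4 arrays). Tacrolimus is a calcineurin inhibitor used against transplant rejection, and the study asked whether its kidney toxicity goes with altered miRNA levels. Both groups share strain, tissue (total kidney), total RNA extraction, an input of 0.1 µg and an RNA integrity number of 9. The labels give neither sex nor age and do not say that the replicates are separate mice, so p-values cover only a spread among samples that may be technical.

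The cluster was described early as an oncogenic group of miRNAs and is switched on directly by Myc. In mice its loss from nephron progenitors impairs nephron formation, and in mouse models of polycystic kidney disease it promotes cyst growth. Each hairpin is cut out by Drosha and Dicer, after which one arm is usually kept by an Argonaute protein. The seed, the stretch near the 5′ end that pairs with target mRNAs, divides the members into families. The miR-17 family represses cell-cycle inhibitors and the pro-apoptotic protein Bim. The miR-19 pair and miR-18a form families of their own, and miR-92a belongs with miR-25 and miR-32.

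The mature sequences are shown because the seeds set the families and the 3′ ends set what the probes can tell apart. Capitals mark the seed, bases 2 to 8, and sequences run 5′ to 3′ as listed by RefSeq (mouse assembly GRCm38.p6), in which all 7 members were found.
miR-17-5p: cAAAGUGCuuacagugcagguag
miR-20a-5p: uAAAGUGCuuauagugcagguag
miR-18a-5p: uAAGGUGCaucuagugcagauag
miR-19a-3p: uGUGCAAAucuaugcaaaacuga
miR-19b-3p: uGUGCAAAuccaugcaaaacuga
miR-92a-3p: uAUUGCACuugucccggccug
miR-17-3p: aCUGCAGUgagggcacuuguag
The 7 members carry 5 seeds. miR-17-5p and miR-20a-5p share one and differ at 2 of 23 bases, C1U and C12U, counted from the 5′ end with the base of miR-17-5p first. miR-19a-3p and miR-19b-3p share another and differ at 1 of 23 bases, U11C, with the base of miR-19a-3p first. miR-17-3p, the opposite arm of the miR-17-5p hairpin, has the seed of miR-106a-3p and miR-20b-3p.

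The 6 hairpins, in the order Mir17, Mir18, Mir19a, Mir20a, Mir19b-1 and Mir92-1, lay on the + strand at chr14:115043671-115044506 (GRCm38.p6), a span of 836 bases. In that annotation Mir92-1 lay wholly inside the record of the host transcript Mir17hg, Mir19b-1 overlapped it by 2 bases, and the other 4 hairpins lay outside the record. miR-19b-3p is also made from Mir19b-2 and miR-92a-3p from Mir92-2, both in the paralogous cluster on chromosome X, so the signal of these members can come from either chromosome. A probe was called detected on an array when the software marked 0.5 or more of its retained spots as well above background. Mir17 was the one hairpin with both arms detected on any array, the 5p arm on 4 of 8 and the 3p arm on 6. From each of the other 5 hairpins 1 arm was detected, the 5p arm of Mir18 on 7 arrays and of Mir20a on 8, and the 3p arm of Mir19a, Mir19b-1 and Mir92-1 on 8 each. Their opposite arms, miR-18a-3p, miR-19a-5p, miR-20a-3p, miR-19b-1-5p and miR-92a-1-5p, were not well above background on any array (0 of 8) and were not tested.

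**Figure D1:**
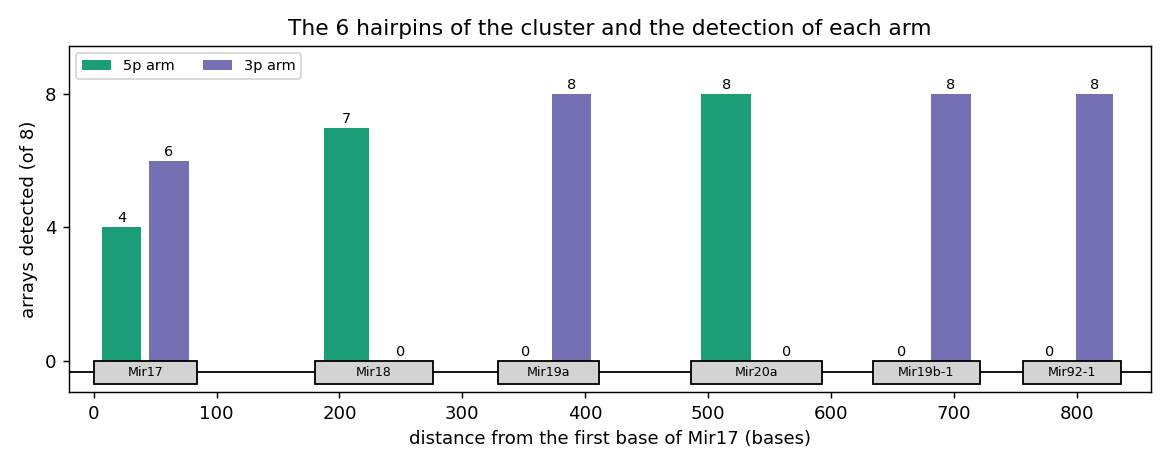
Number of arrays, of 8, on which the 5p arm (green) and the 3p arm (purple) of each hairpin was detected. Hairpins are grey boxes drawn at their distance in bases from the first base of Mir17. The bars stand on their hairpin and do not mark the exact position of the arm. Mir17 has both arms detected (4 and 6 arrays), and the other 5 hairpins have 1 arm detected on 7 or 8 arrays and the other on 0.

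Each member had 2 probes of 20 spots, which pair with the miRNA from its 3′ end and differ in length by 1 base. The probes of miR-17-5p are the shortest, 12 and 13 bases, and reach none of its seed, and what they can pair with bears on how its signal is read. Capitals below mark the unbroken run that pairs with the 13-base probe, ctacctgcactgt, counted from the 3′ end of each miRNA.
miR-17-5p: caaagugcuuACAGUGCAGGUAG
miR-106a-5p: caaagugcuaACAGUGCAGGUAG
miR-20a-5p: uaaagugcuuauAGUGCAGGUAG
miR-20b-5p: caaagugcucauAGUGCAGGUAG
miR-106a-5p, from the X-chromosome cluster, differs from miR-17-5p at 1 base, U10A, outside the probe, and pairs with all 13 bases. The array design lists miR-106a-5p among the targets of these probes and has no separate name for it, so that its signal and that of miR-17-5p cannot be told apart. miR-20a-5p and miR-20b-5p pair over 11 bases, and each has 1 mismatch within the probe. The 18- and 19-base probes of miR-20a-5p have 1 mismatch to miR-17-5p and to miR-20b-5p. The probes of miR-19a-3p and of miR-19b-3p have 1 mismatch to each other's target. The probes of miR-17-3p, miR-18a-5p and miR-92a-3p matched their own miRNA and came within 1 mismatch of no other mouse miRNA in the RefSeq table.

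The longer probe of every member was brighter than the shorter one on 8 of 8 arrays. The median ratio of their processed intensities was 5.40 for miR-92a-3p, 4.08 for miR-19b-3p, 3.62 for miR-17-5p, 2.82 for miR-17-3p, 2.29 for miR-18a-5p, 1.79 for miR-19a-3p and 1.63 for miR-20a-5p. Such a gap was common on the array: among 102 miRNAs with probes nested in this way and detected on all arrays, 98 had the longer probe brighter, with a median ratio of 2.37 and a range of 0.444 to 11.5. Probes 1 base apart thus differed in brightness for one and the same miRNA, and the brightness of different members is not read here as an order of abundance. Each member is represented by its brighter probe, as every miRNA on the array is.

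**Figure D2:**
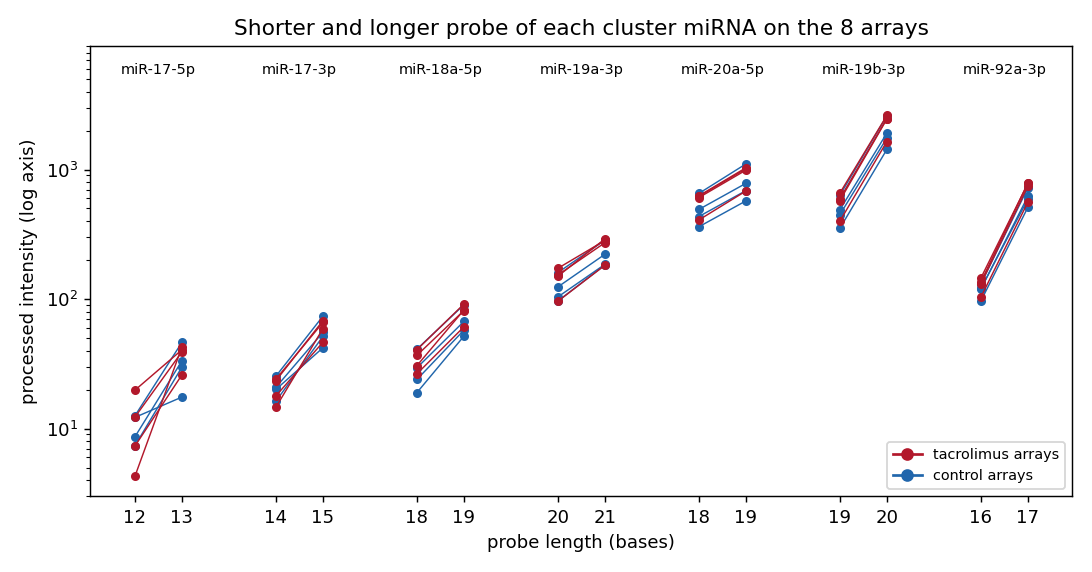
Processed intensity (arbitrary units, log axis) of the shorter and the longer probe of each member, with 1 line per array (tacrolimus red, control blue) and the probe lengths in bases below. Every line rises to the longer probe, by a median of 1.63 times for miR-20a-5p up to 5.40 times for miR-92a-3p, and lines of both colours lie among each other.

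Arrays detected 147 to 220 miRNAs and had pairwise correlations of 0.987 to 0.997 over the 194 miRNAs tested. The spread of negative-control spots was widest on tacrolimus 4 (SD 20.3), followed by control 1 (10.5) and control 3 (9.69), against 4.45 to 5.46 on the others. Tacrolimus arrays lay in one row of the slide and control arrays in the other, so that row and treatment cannot be told apart. Of the 4 kidney tubule markers all were tested and 3 had differences above 0 (median 0.14), with miR-192-5p at 1.81 ± 0.13 in tacrolimus and 1.67 ± 0.06 in control kidneys (scaled log2 signal as defined below, SD, n = 4 each), and the liver marker miR-122-5p was not detected on any array. The 6 leukocyte markers had a summed scaled signal of 0.723 to 0.996 in tacrolimus and 0.454 to 0.738 in control kidneys, and all 6 differences were above 0 (median 0.58). The 3 erythrocyte markers summed to 1.88 to 2.50 in tacrolimus and 2.09 to 5.81 in control kidneys, and all 3 differences were below 0 (median -0.67). As background, both kinds of cell also hold miRNAs of this cluster. None of these markers passed the adjusted threshold, and their part in the values below was not tested.

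No member of the cluster changed past the threshold. Signals are given as log2 of the processed intensity scaled to each array's 75th percentile of detected probes, so that 0 is that percentile and the floor lies at -5.96. Of 7 members tested, 0 were called higher and 0 lower in tacrolimus kidneys by limma with Benjamini-Hochberg adjustment over all 194 tested miRNAs (threshold 0.05), where 3.09% of all tested miRNAs were called higher and 0% lower. At an unadjusted p under 0.05 the count was also 0 of 7 members, against 30 of 194 miRNAs (15.5%). It was 2 with the floor 2 times as high (miR-18a-5p and miR-20a-5p), 1 with no detection filter (miR-18a-5p) and 1 without tacrolimus 3 (miR-19b-3p). The raised floor and the missing filter left the differences of miR-18a-5p and miR-20a-5p at 0.11, the same as without these changes. The share of all miRNAs under that p was not computed for these settings, so the 15.5% does not apply to them. The members' differences (tacrolimus minus control) lay between -0.04 and 0.11 with a median of 0.08, and over all 194 miRNAs the median was 0.04. Differences were above 0 for 6 of the 7 members and for 115 of all 194 miRNAs (59.3%). The member count was 4 of 7 with normexp background correction, 5 of 7 with scaling to the median of detected probes and 7 of 7 with no scaling between arrays. For the members other than miR-17-5p, which lay at the floor on 2 arrays, the 95% intervals reached from 0.885-fold to 1.20-fold of control. The lower end is that of miR-17-3p, a faint member detected on only 6 arrays, and miR-19b-3p is held near 0 by the scaling, as described below. With no scaling between arrays the members' differences ran from 0.12 to 0.27. The intervals thus hold for the scaling used and set no general limit on a change. In whole-kidney RNA, fewer cells of a type and less RNA per cell cannot be told apart.

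**Figure D3:**
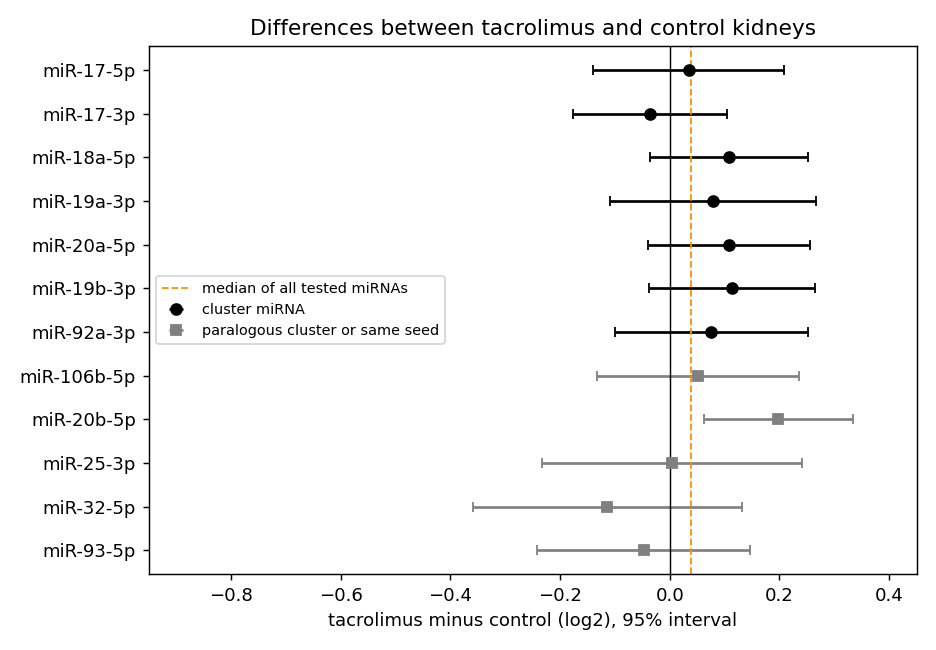
Difference between tacrolimus and control kidneys (log2, with limma's 95% interval, 4 arrays each) for the 7 members (black) and the 5 tested relatives from paralogous clusters or with a shared seed (grey). All 7 black intervals include 0, and the dashed line marks the median over all 194 tested miRNAs, 0.04.

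miR-17-5p, the founding member of the family with seed AAAGUGC, was close to the floor. Its signal was -5.78, -5.86, -5.96 (the floor) and -5.70 on tacrolimus arrays 1 to 4, against -5.77, -5.84, -5.96 (the floor) and -5.87 on control arrays 1 to 4. The groups overlapped, and the probe was detected on 3 tacrolimus arrays and on 1 control array. The highest signal, on tacrolimus 4, came with only 11.1% of the kept spots well above background, and its intensity was 2.10 times the spread of the negative controls there, against 5.83 to 8.00 times on tacrolimus 1 to 3. The means were -5.83 ± 0.11 in tacrolimus and -5.86 ± 0.08 in control kidneys (SD, n = 4 each), a difference of 0.03 (SE 0.077, limma adjusted p = 0.849). Its intensity was 17.5 to 46.3 over the 8 arrays, signals at the floor have no order, and the interval of the difference was -0.14 to 0.21. As the floor raises the dimmest signals, this interval sets no limit on the size of a difference.

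miR-20a-5p has the same seed, and its probe was bright on every array (intensity 572 to 1104). Its signal was -1.12, -1.16, -1.27 and -1.16 in tacrolimus kidneys and -1.19, -1.29, -1.32 and -1.34 in control kidneys. Tacrolimus 1, 2 and 4 stood above every control array, and tacrolimus 3 stood below control 1. The means were -1.18 ± 0.07 in tacrolimus and -1.29 ± 0.07 in control kidneys, and the difference of 0.11 (SE 0.066, limma adjusted p = 0.475) had an interval of -0.04 to 0.26.

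miR-18a-5p, whose processing in human cells is helped by the RNA-binding protein hnRNP A1, was the one member whose groups did not overlap. Without tacrolimus 3 those of miR-19b-3p and miR-20a-5p did not overlap either, and without control 1 those of miR-20a-5p did not. Each array left out was the one of its group nearest to the other group, and fewer arrays separate more easily. The share over all miRNAs was not computed with an array left out, so these counts are not read further. The signal of miR-18a-5p was -4.78, -4.63, -4.76 and -4.75 in tacrolimus kidneys and -4.81, -4.83, -4.79 and -4.92 in control kidneys. Among all tested miRNAs, the groups did not overlap for 10.3%, made up of 8.25% in the higher and 2.06% in the lower direction, so 1 of 7 members is not read as particular to the cluster. The gap was narrow, the lowest tacrolimus array being at -4.78 and the highest control array at -4.79. The means were -4.73 ± 0.06 in tacrolimus and -4.84 ± 0.06 in control kidneys, and the difference was 0.11 (SE 0.064, unadjusted p = 0.125, limma adjusted p = 0.467). The probe was detected on 3 tacrolimus arrays, tacrolimus 4 being the exception, and on 4 control arrays. With normexp background correction the difference was -0.06, and the groups overlapped under that and under every other scaling tried.

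The miR-19 pair carries the seed GUGCAAA. miR-19a-3p had signals of -2.98, -3.06, -3.18 and -2.92 in tacrolimus kidneys and -3.15, -3.11, -2.96 and -3.23 in control kidneys. Tacrolimus 3 and control 3 broke the order of the groups, the one being lower than all but control 4 and the other higher than all but tacrolimus 4. The means, -3.04 ± 0.11 in tacrolimus and -3.11 ± 0.11 in control kidneys, differed by 0.08 (SE 0.083, limma adjusted p = 0.657). miR-19b-3p had signals of 0.23, 0.11, -0.0037 and 0.16 in tacrolimus kidneys and 0.04, -0.0033, -0.0020 and 0.0096 in control kidneys. Tacrolimus 1, 2 and 4 were thus above all controls and tacrolimus 3 was level with the lowest of them, and the spread was wider in tacrolimus (0.12 ± 0.10) than in control kidneys (0.01 ± 0.02). The difference of 0.11 (SE 0.067, limma adjusted p = 0.467) had an interval of -0.04 to 0.27. This probe sits at the point used for scaling: it ranked 189 to 194 of 252 on the tacrolimus arrays and 189 to 190 on the control arrays, where the percentile falls at position 189.25. A probe at that position is near 0 by construction. With the cluster's own probes left out of the scale the difference was still 0.11. This does not lift that limit, as the percentile still falls among probes of like brightness.

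miR-92a-3p, from the last hairpin, had signals of -1.52, -1.53, -1.56 and -1.57 in tacrolimus kidneys. The control arrays read -1.81, -1.63, -1.49 and -1.56, so that control 3 was above and control 1 below every tacrolimus array. The means were -1.55 ± 0.03 in tacrolimus and -1.62 ± 0.14 in control kidneys. Their difference of 0.08 (SE 0.078, limma adjusted p = 0.657) had an interval of -0.10 to 0.25.

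miR-17-3p, the 3p arm of the first hairpin, was the one member with a difference below 0. Its signal was -5.08, -5.06, -5.15 and -5.23 in tacrolimus kidneys and -5.10, -5.11, -5.09 and -5.08 in control kidneys. The control arrays lay within the range of the tacrolimus arrays. The means were -5.13 ± 0.08 in tacrolimus and -5.10 ± 0.01 in control kidneys, and the difference was -0.04 (SE 0.062, limma adjusted p = 0.798, interval -0.18 to 0.10). Without scaling between arrays the difference was 0.12. The probe was detected on 3 arrays of each group. The lowest signal, on tacrolimus 4, came with 0% of the kept spots well above background. Its intensity there was 2.91 times the spread of the negative controls, and without that array the difference was -0.0033.

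The extremes of each group fell on different arrays for different members. Tacrolimus 3 was the lowest tacrolimus array for 4 of the 7 members and tacrolimus 1 the highest for 3. Control 4 was the lowest control array for 3 members, and control 1 and control 3 were each the highest for 3. The mean over the 7 members was -3.005, -3.03, -3.13 and -3.02 on tacrolimus arrays 1 to 4 and -3.11, -3.12, -3.09 and -3.14 on control arrays 1 to 4. Tacrolimus 3 fell within the control range, and the other 3 tacrolimus arrays were above it.

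**Figure D4:**
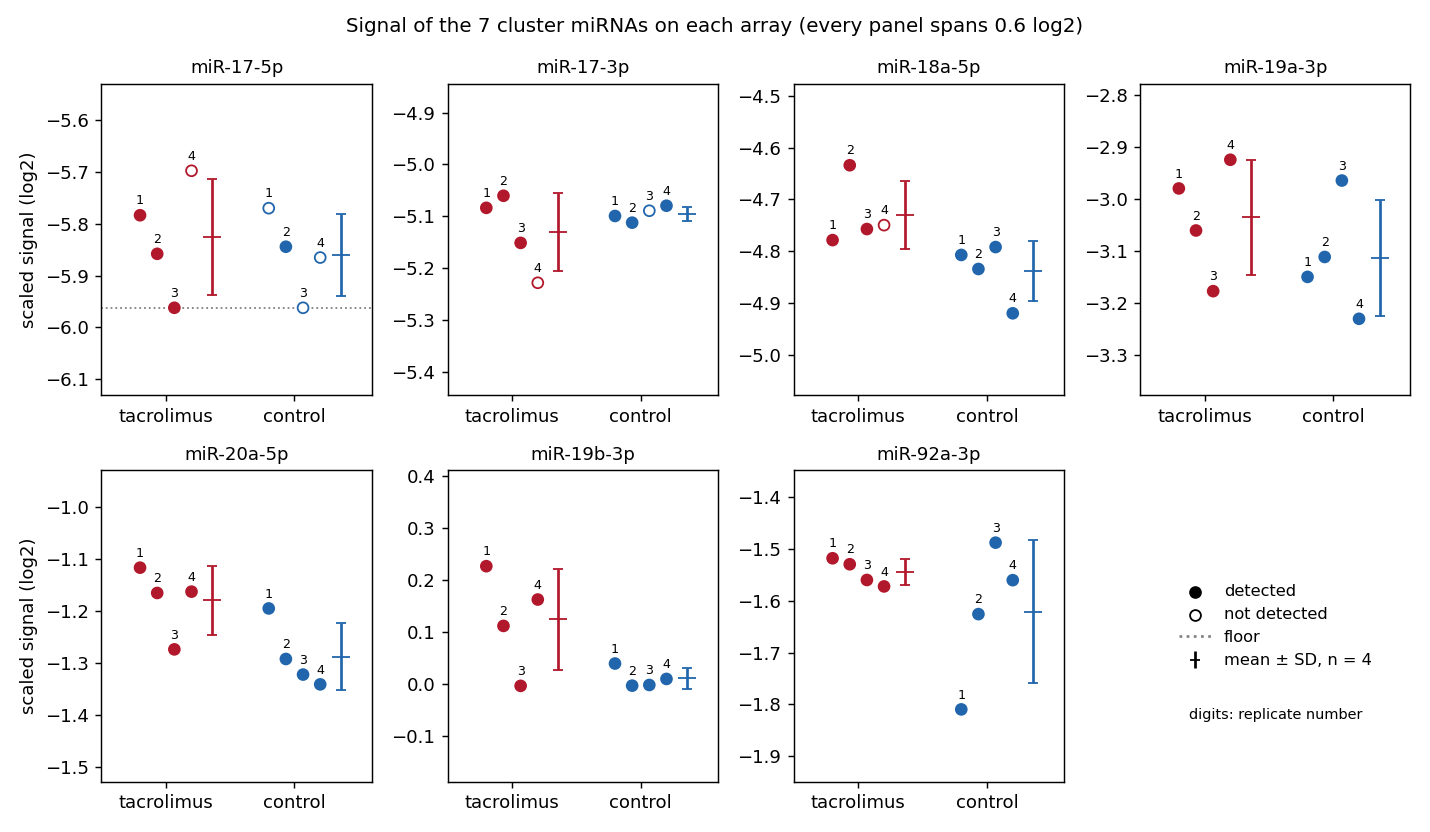
Scaled signal (log2) of the 7 members on each tacrolimus array (red, left) and control array (blue, right), with the replicate number, the mean and the SD (n = 4). Open circles mark arrays on which the probe was not detected, the dotted line is the floor at -5.96, and every panel spans 0.6 log2 units, so that the overlap of the groups can be compared between panels. In 6 of 7 panels the groups overlap.

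The second, dimmer probe of each member gave a check on the same arrays. For miR-19a-3p the second probe gave a difference of 0.08 (SE 0.091), for miR-20a-5p 0.08 (SE 0.063) and for miR-19b-3p 0.07 (SE 0.073). For miR-18a-5p it gave 0.04 (SE 0.062), but was detected on 4 arrays and stood at the floor on 5 of 8. The floor narrows that difference and its SE, so it is hardly a check. For miR-92a-3p it gave -0.02 (SE 0.097), against 0.08 with the brighter probe. The second probes of miR-17-5p and miR-17-3p were detected on 0 arrays and stood at the floor on all 8. With all 357 probes that passed the filter tested one by one in limma, 0 were called, and the members' adjusted p ran from 0.476 to 0.943.

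Because the members are cut from one transcript, the ratio of 2 members within an array asks whether they moved unequally between the groups. Pairs of members, 5 in all, were compared by exact two-sided permutation of the 8 arrays, for which the smallest possible p is 0.0286, or 0.143 after adjustment over the 5 pairs if 1 alone reached it. None of the 5 could therefore pass alone, and the sizes are given as estimates. The log2 ratio of miR-17-5p to its family member miR-20a-5p was lower by 0.07 (difference -0.07, SE 0.045, exact p = 0.143, adjusted 0.714). The ratio of miR-17-5p to the opposite arm miR-17-3p differed by 0.07 (SE 0.090, exact p = 0.543, adjusted 0.771), and was -0.0042 without tacrolimus 4. The ratio of miR-19a-3p to miR-19b-3p differed by -0.03 (SE 0.066, exact p = 0.714, adjusted 0.771). For miR-17-5p over miR-18a-5p the difference was -0.07 (SE 0.086), and for miR-17-5p over miR-92a-3p, the first and the last hairpin, it was -0.04 (SE 0.122), both with an adjusted exact p of 0.771. The last of these was 0.05 without control 1. All but the miR-19 pair rest on miR-17-5p, which was not detected on 4 of the 8 arrays and was at the floor on 2, so these ratios say little about unequal movement. With the floor 2 times as high, the ratio to miR-20a-5p differed by -0.11, which is the difference of miR-20a-5p alone with its sign turned.

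The relatives of the cluster, from the paralogous clusters of miR-106a (chromosome X) and miR-106b (chromosome 5) or with a shared seed elsewhere, were mostly dim. Of 19 listed names 18 were on the array and 5 were tested. None passed the threshold in either direction, and the median difference was 0.0044. An unadjusted p under 0.05 was found for 1 of the 5, against 15.5% of all tested miRNAs. miR-20b-5p, from the X-chromosome cluster and with the seed of miR-17-5p, had signals of -1.98, -1.97, -2.08 and -1.97 in tacrolimus kidneys and -2.18, -2.22, -2.14 and -2.24 in control kidneys. The groups did not overlap, as was so for 10.3% of all tested miRNAs. The difference of 0.20 (SE 0.060, unadjusted p = 0.00934, limma adjusted p = 0.151) had an interval of 0.06 to 0.33. It differs from miR-20a-5p at U1C and U10C, with the base of miR-20a-5p first, and its probes have 1 mismatch to miR-20a-5p, so that reading of one by the other's probe was not tested.

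In the miR-106b cluster, an intronic cluster of the replication gene Mcm7, differences were small and of both signs. miR-106b-5p averaged -1.38 ± 0.11 in tacrolimus and -1.43 ± 0.11 in control kidneys, a difference of 0.05 (SE 0.082, limma adjusted p = 0.772). miR-93-5p averaged -1.68 ± 0.07 in tacrolimus and -1.63 ± 0.15 in control kidneys, a difference of -0.05 (SE 0.086, limma adjusted p = 0.798). Outside these clusters, on chromosome 4, lies miR-32-5p, which shares the seed of miR-92a-3p. It averaged -5.66 ± 0.15 in tacrolimus and -5.55 ± 0.18 in control kidneys, a difference of -0.11 (SE 0.109, limma adjusted p = 0.646). Its signal was close to the floor at -5.96, and it was detected on 6 of 8 arrays. miR-25-3p, of the miR-106b cluster and with the seed of miR-92a-3p, was the other tested relative, named here after its values were seen. It averaged -1.83 ± 0.09 in tacrolimus and -1.84 ± 0.20 in control kidneys, a difference of 0.0044 (SE 0.105, limma adjusted p = 0.988). The relatives that were not tested, among them miR-18b-5p, miR-363-3p and miR-92b-3p, were detected on 0 of 8 arrays.

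The 3 tested miRNAs outside the cluster whose pattern over the 8 arrays was most like the mean of the 7 members were miR-20b-5p and both arms of miR-199a, chosen by Pearson's r among 187 miRNAs. Pearson's r was 0.892 for miR-20b-5p (permutation p = 0.00900, Spearman's rho 0.762 with p = 0.0368), 0.890 for miR-199a-3p (p = 0.00724, rho 0.786 with p = 0.0279) and 0.875 for miR-199a-5p (p = 0.00880, rho 0.738 with p = 0.0458). After adjustment over the 187 miRNAs the permutation p was 0.421 for each r and 0.718 for each rho. Without tacrolimus 1 and tacrolimus 4, the arrays farthest from the median of the cluster mean, r was 0.819, 0.895 and 0.859 in the same order. Both arms of miR-199a were among the 6 miRNAs called higher in tacrolimus kidneys (limma adjusted p = 0.0476 each), and the groups overlapped for none of the 3. An r over all 8 arrays thus takes in the difference between the groups. All values share the scaling of their array, and groups of 4 arrays are too small for an r within each group.

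Under every alternative way of processing the arrays that was tried, 0 members passed the adjusted threshold in any of them. The median difference of the tested members ran from 0.0063, when arrays were scaled to the median of detected probes, to 0.23 with no scaling, where the median over all tested miRNAs was 0.19. The differences of miR-19a-3p, miR-19b-3p and miR-20a-5p were above 0 in each of their 23 alternatives, and those of the faint arms miR-17-5p and miR-17-3p kept their sign in 15 and 17 of 21. Some alternatives changed only the model or the detection filter and left these differences as they were. All reuse the same arrays, so the counts are not independent support.

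**Figure D5:**
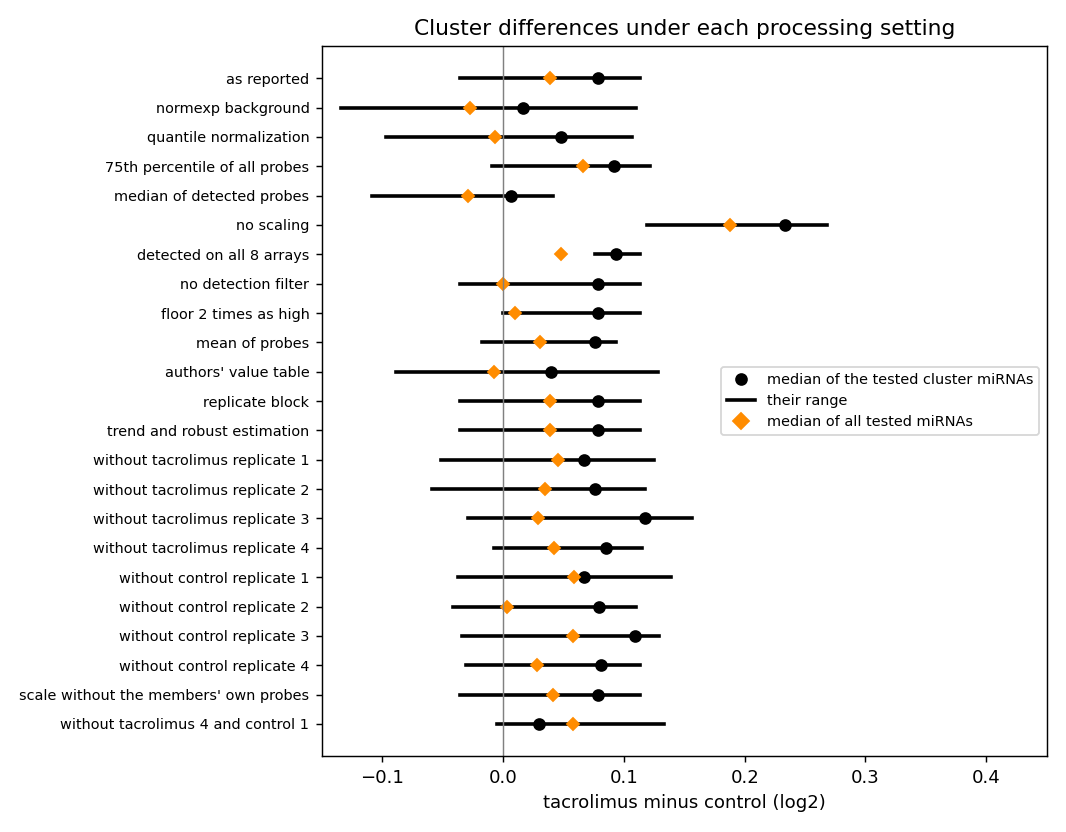
Median (black point) and range (bar) of the members' differences between tacrolimus and control kidneys (log2) under each processing setting, with the median over all tested miRNAs (orange). The cluster median ran from 0.0063 to 0.23, and it stood above the median over all miRNAs in every setting but the one without tacrolimus 4 and control 1, where it was 0.03 against 0.06.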

How the data were processed

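Per the file headers, the authors deposited scanner output of one-colour (Cy3) Agilent mouse miRNA arrays made with Feature Extraction 10.7.3.1, as linear spot intensity with background subtracted and no scaling between arrays. The authors' deposited value table matched, in 100% of its cells (tolerance 1e-06), the total signal per gene from that software, so it is an unscaled intensity too. Limma is named without a version in the submitters' processing notes. The labels name an mRNA labelling kit.

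Non-uniform and outlier spots were left out (7.36% to 11.2% per array; 0 saturated). Spots were averaged per probe, divided by each array's 75th percentile over 252 probes (those detected on all 8 arrays), floored at -5.96 and taken to log2. A miRNA, represented by its brightest probe, was tested if detected on at least 4 arrays. Groups were compared with limma 3.58.1 in R 4.3.3 (lmFit, eBayes, two-sided, no covariate). The limma fit and the permutation test alone were also run on simulated data. The changes planted for limma were far larger than the members' differences, so that run does not show whether differences of their size would be found. Scaling, floor, probe choice and detection filter were not simulated. Replicate numbers were not used as pairs: same-numbered arrays deviated together with correlations of 0.109, 0.140, 0.112 and 0.0946. The control array that deviated most like tacrolimus 1, 2, 3 and 4 was control 4, 1, 3 and 3, in that order. Each replicate number was also the slide column of its arrays, so number and column cannot be told apart. Precision is limited by the number of arrays. The cluster members, the lists of relatives and markers, and the tests were chosen with earlier results of these data known. By rule the text names all members, the relatives of smallest p (at most 4), the 3 most alike miRNAs and cell type markers.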

Additional observations from a re-analysis of the deposited data

Results flagged for a closer look

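Among 32 groups of 4 arrays examined for a single array far from the others (members, relatives and markers, 2 groups each), 2 stood out, where chance gives about 1.6, and neither was a member of the cluster. miR-20b-5p on tacrolimus 3 was at -2.08, below the other tacrolimus arrays at -1.98, -1.97 and -1.97. The erythrocyte marker miR-451a on tacrolimus 4 was at 0.84, below the other tacrolimus arrays at 1.22, 1.22 and 1.26, while the control arrays were at 2.48, 2.09, 1.66 and 1.01.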

How the results depend on the processing

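Of 268 recomputed values, 252 stayed on their side of the threshold or within the spread without a change of sign. A further 15 changed sign, and 1 moved beyond the spread between replicates. These are not independent checks. Taking the replicate number as a block, trend and robust estimation and a changed detection filter each leave a member's difference as it was. No pair ratio could pass the threshold alone in any setting. None of the 7 members passed the adjusted threshold under any alternative. The value that moved was the members' median, 0.23 with no scaling against 0.08, where the median over all tested miRNAs was 0.19 against 0.04. Of the 252, both miR-17 arms and their ratio, 3 values, were exactly 0 with the floor raised 2 times, all arrays being at it, and have no direction. The sign changes were as follows. miR-17-5p was -0.0091 with the 75th percentile of all probes, -0.089 in the authors' value table, -0.0024 with scaling to the median, -0.029 with normexp and -0.0075 without tacrolimus 4, against 0.03. miR-17-3p was 0.092 with the 75th percentile of all probes, 0.13 in the authors' table and 0.12 with no scaling, against -0.04. miR-18a-5p was -0.058 with normexp and miR-92a-3p -0.017 with its second probe. The ratio of miR-17-5p to miR-17-3p was -0.22 in the authors' table and that to miR-18a-5p 0.029 with normexp. The cause of these changes was not tested. Leaving out 1 array at a time gave -0.0075 to 0.081 for miR-17-5p, -0.0042 to 0.11 for the ratio of miR-17-5p to miR-17-3p, -0.12 to 0.052 for that to miR-92a-3p, -0.073 to 0.019 for miR-19a-3p to miR-19b-3p, and 0.07 to 0.12 for the median. With the replicate number as a block, 0 members were called (smallest member adjusted p = 0.549) and 0 of all miRNAs, against 6 without it. That count was 6 higher and 2 lower with median scaling, 5 among miRNAs detected on all arrays, 2 with quantile normalization, 1, in the lower direction, with normexp, and 0 with no scaling, the 75th percentile of all probes, the mean of probes, no detection filter, the floor raised 2 times, the authors' table or trend and robust estimation. It ran from 0 to 6 with 1 array left out. Further alternatives, chosen after seeing the data, scaled without the cluster's own probes (median 0.08, 0 calls) or left out tacrolimus 4 and control 1 together (median 0.03, 3 calls). Signals near background limit miR-17-5p, miR-17-3p and miR-18a-5p.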
